A study of Mus musculus with 20 samples.

Results

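The FGF and ERK pathway genes described here are Fgf4, Fgfr1, Fgfr2, Dusp6, Spry2, Spry4, Etv4 and Etv5, and the measurement is the position of accessible chromatin around them in mouse embryonic stem (ES) cells. Members were all peaks of a merged ATAC-seq peak list that overlapped one of the 8 genes in the GENCODE M21 annotation or lay within 50000 bp of it. This gave 247 of the 102373 listed peaks. Of these, 145 belonged to Fgfr2, because 1 of its 27 annotated transcripts, Fgfr2-217, starts 2860 kb upstream of the principal transcript and stretches the gene span from 104 kb to 2960 kb, across 29 other protein-coding genes. All 137 peaks added by that transcript lay nearest to the 5′ end of another protein-coding gene. The peaks were therefore chosen without it, which left 8 peaks at Fgfr2 and 110 in all, and the main shares are given for both sets. The annotation class of a peak's centre (intron, exon or between genes) still used the full span of Fgfr2. The choice to leave the transcript out was made after the peaks were seen.

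FGF4 is a secreted growth factor that ES cells make themselves. It binds FGF receptors, of which FGFR1 and FGFR2 are the ones best known from the early embryo, and the receptors pass the signal through RAS, RAF and MEK to the kinase ERK, which moves ES cells away from self-renewal. The pathway switches on its own brakes, the ERK phosphatase DUSP6 and the Sprouty proteins SPRY2 and SPRY4, together with the ETS-family transcription factors ETV4 and ETV5, and these genes are widely used as readouts of FGF signalling. Fgf4 is also a classical joint target of OCT4 and SOX2, which bind side by side on a composite element in its enhancer.

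ATAC-seq, in which a transposase cuts and tags open DNA, was performed in ZHBTc4 cells, an ES line in which doxycycline (dox) silences the Tet-Off Pou5f1 gene that encodes OCT4. The cells carried a lentiviral, PGK-driven SNAP-tagged OCT4 with a mitotic degron (MD-OCT4), lost at the passage from mitosis to G1, or with an inactivated degron (MD*-OCT4), plus a YPet-MD reporter of the cell cycle. They were populations sorted for SNAP level rather than single clones. Both constructs were expressed below wildtype OCT4 levels, so that in dox the MD*-OCT4 cells also held less OCT4 than wildtype cells. After 40 h in 1 µg/ml dox, each construct was sorted on Hoechst (50 µM) and YPet into the 4 phases EG1 and LG1 (the early and the late part of G1), S, and SG2 (the end of S with G2), in 2 replicates, which gave 16 of the 20 samples, and 2 unsorted cultures of each construct without dox made up the other 4. Every culture, controls included, grew in serum and LIF with the GSK3 inhibitor CHIR99021 (3 µM) and the MEK inhibitor PD184352 (0.8 µM), which blocks the step just before ERK. The list thus describes these 8 genes in cells kept in a MEK inhibitor throughout, and it holds no measure of ERK activity.

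The list merges the peaks of the 16 dox-treated samples and has 3 columns, the chromosome, the start and the end. It gives no read count, score or depth for a sample, so that a region open in 1 sample and a region open in all 16 appear alike, neither construct nor phase can be compared, and no replicate error or test can be given for a peak. A width given here is that of the merged interval and can exceed the width called in any 1 sample. Of 8 genes that mark ES cells (Pou5f1, Sox2, Nanog, Zfp42, Esrrb, Klf4, Tfcp2l1 and Dppa5a), 7 had one of the peaks at most 1000 bp from an annotated start, and the nearest peak to Nanog lay 1401 bp away. Coordinates are in mm10 (GRCm38), counted from 1, and distances run from the 5′ end of the transcript that the APPRIS annotation marks as principal, negative upstream.

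Composite OCT4::SOX2 sites were the first sequences of interest, since OCT4 was the factor manipulated. A match was defined as a SOX part followed by an octamer part, 15 defined letters with up to 2 mismatches on either strand, with the parts adjacent or separated by 3 bases, the arrangement of the Fgf4 enhancer. The peaks of Fgf4 and Etv5 held the following matches, shown with the match in capitals. The first is cut to 30 bases and lies in the 3′ untranslated region of Fgf4 at chr7:144864388-144864417, the second lies between Fgf4 and Fgf15 at chr7:144888749-144888823, and the third lies in intron 6 of Etv5 at chr16:22411935-22412012 on the minus strand.
Fgf4 3′ UTR, spaced: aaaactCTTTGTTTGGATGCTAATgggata
Fgf4 downstream, adjacent: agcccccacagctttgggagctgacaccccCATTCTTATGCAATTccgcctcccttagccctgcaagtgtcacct
Etv5 intron, spaced: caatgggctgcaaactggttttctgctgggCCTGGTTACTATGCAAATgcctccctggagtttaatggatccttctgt
The Fgf4 3′ UTR match had 1 mismatch and the other two had 2. In the Etv5 site the octamer part is the exact octamer ATGCAAAT.

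The octamer alone, without a mismatch, marked peaks at other members and is printed next in capitals with up to 20 flanking bases. Fgfr1 held it at chr8:25465506-25465553 and chr8:25513496-25513543, Dusp6 at chr10:99229297-99229344, chr10:99261464-99261509 and, on the minus strand, chr10:99298724-99298771, and Spry2 on the minus strand at chr14:105859210-105859257.
Fgfr1, -53.2 kb: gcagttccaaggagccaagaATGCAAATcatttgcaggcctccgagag
Fgfr1, -5.24 kb: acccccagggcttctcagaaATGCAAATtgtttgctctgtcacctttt
Dusp6, -33.9 kb: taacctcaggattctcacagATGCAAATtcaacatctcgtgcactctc
Dusp6, -1.75 kb: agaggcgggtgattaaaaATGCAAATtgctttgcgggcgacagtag
Dusp6, 35.5 kb: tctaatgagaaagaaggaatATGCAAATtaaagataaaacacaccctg
Spry2, 37.6 kb: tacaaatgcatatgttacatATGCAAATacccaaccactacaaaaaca
Dusp6 was the member with most octamer peaks, 3 of its 11, and no exact octamer was found in the peaks of Fgf4, Fgfr2, Spry4 or Etv4.

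A further kind of sequence shown is the DNA just before a member's start, all or most of it inside a listed peak. Each run is the 250 bases before the principal start, on the strand of the gene, from the RefSeq copy of GRCm38, with CG dinucleotides in capitals. The runs are chr7:144861136-144861385 (plus strand), chr10:99262981-99263230 (plus), chr14:105896820-105897069 (minus) and chr16:22439720-22439969 (minus).
Fgf4: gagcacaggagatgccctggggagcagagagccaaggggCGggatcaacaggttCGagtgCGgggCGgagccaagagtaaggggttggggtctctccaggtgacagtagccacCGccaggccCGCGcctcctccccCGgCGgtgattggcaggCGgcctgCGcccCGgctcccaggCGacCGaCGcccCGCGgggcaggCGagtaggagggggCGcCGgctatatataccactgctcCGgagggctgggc
Dusp6: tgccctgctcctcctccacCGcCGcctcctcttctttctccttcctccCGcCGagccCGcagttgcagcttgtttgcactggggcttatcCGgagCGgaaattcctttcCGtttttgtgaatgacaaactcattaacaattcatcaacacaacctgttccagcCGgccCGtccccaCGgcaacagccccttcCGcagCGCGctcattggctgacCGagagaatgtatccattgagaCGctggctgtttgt
Spry2: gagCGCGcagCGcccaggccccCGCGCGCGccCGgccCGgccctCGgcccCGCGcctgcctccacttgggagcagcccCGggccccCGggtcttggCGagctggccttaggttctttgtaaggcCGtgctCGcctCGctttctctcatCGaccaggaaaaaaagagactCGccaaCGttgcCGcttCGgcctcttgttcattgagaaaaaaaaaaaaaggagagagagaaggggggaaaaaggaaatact
Etv5: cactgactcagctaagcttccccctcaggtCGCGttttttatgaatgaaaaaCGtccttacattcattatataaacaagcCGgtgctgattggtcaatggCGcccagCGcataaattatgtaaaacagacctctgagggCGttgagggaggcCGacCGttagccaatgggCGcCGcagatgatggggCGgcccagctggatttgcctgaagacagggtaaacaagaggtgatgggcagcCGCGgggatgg
These held 21, 16, 23 and 14 CG dinucleotides, against a median of 6 in the same stretch of 32851 RefSeq mouse promoters. For Fgf4, Dusp6 and Etv5 all 250 bases lay inside a listed peak, and for Spry2 197 did. Over the members the count ran from 9 at Fgfr1 and at Etv4 to 40 at Fgfr2, a number that 1.31% of the RefSeq promoters reached. A GC box, searched as GGGCGG on both strands, was present before 6 of the 8 genes, all but Dusp6 and Spry2, and in 32.7% of the RefSeq promoters.

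**Figure D1:**
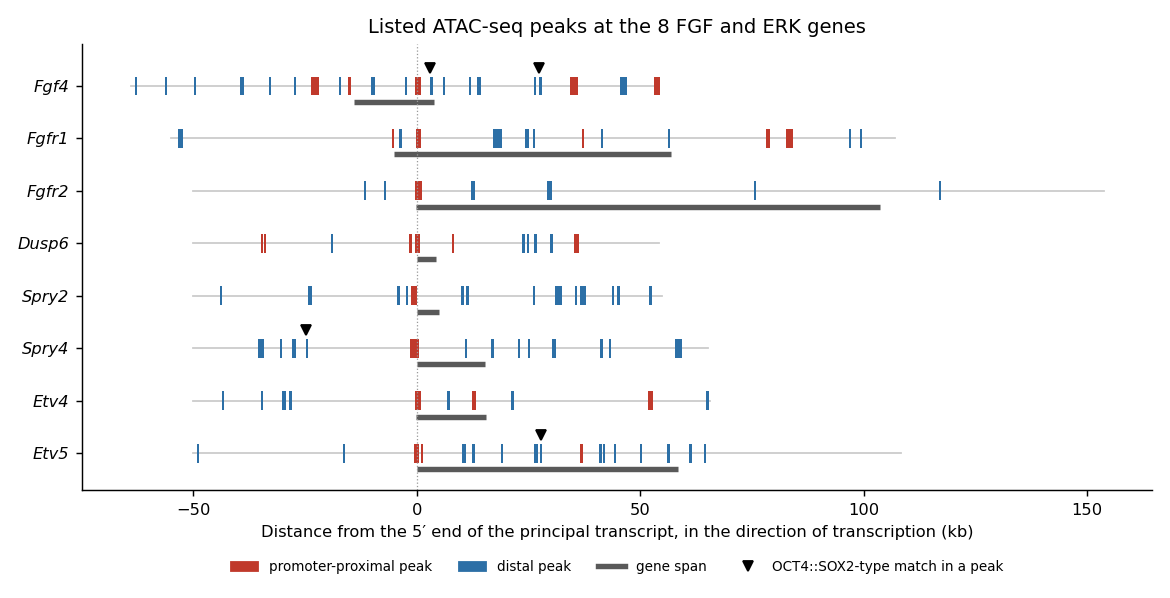
Listed peaks at each of the 8 genes against the distance (kb) from the 5′ end of the principal transcript, in the direction of transcription. Red and blue blocks are promoter-proximal and distal peaks (blocks under 0.5 kb are drawn at 0.5 kb), the dark bar is the gene span without Fgfr2-217, the grey line is the window of 50 kb on each side, and triangles mark OCT4::SOX2-type matches inside peaks. Every gene has a peak at or next to its start, and the distal peaks lie on both sides at most genes.

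Every member had an accessible start. A listed peak lay within 1000 bp of the principal 5′ end of 8 of 8 genes, where 66.8% of all 21938 protein-coding genes had one. The peak covered the first base itself at 7 of the 8, and at Spry2 it stopped 53 bp short of it. These peaks were broad and GC-rich, from 997 bp at Fgfr1 to 1981 bp at Spry4, with 55.7% (Dusp6) to 73.4% (Fgfr1) GC. The peak at Spry4 was among the widest 1.83% of all promoter-proximal peaks and that of Fgfr2, at 1695 bp, among the widest 4.71%. The widths of the other six were reached by 12.3% (Etv4) to 37.1% (Fgfr1) of promoter-proximal peaks.

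The surroundings of most members held more peaks than those of a typical gene, to very different degrees. Within 50000 bp of the principal 5′ end, Fgf4 had 19 peaks, Spry2 and Etv5 13 each, Spry4 12, Dusp6 11, Fgfr1 9, Etv4 8 and Fgfr2 6. The median over all protein-coding genes was 7, with quartiles of 3 and 12, so that 7 of the 8 members lay above the median and 4 reached the upper quartile. The number at Fgf4 was reached by 3.47% of protein-coding genes and that at Fgfr2 by 59.3%. Neighbouring genes contribute to such counts, and their share is given for each gene.

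**Figure D2:**
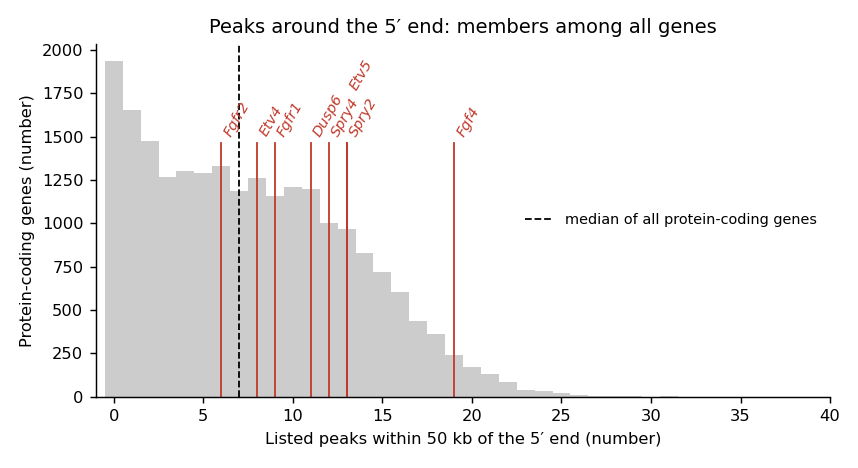
Number of protein-coding genes (grey bars) by the number of listed peaks within 50 kb of the principal 5′ end, with the median of 7 (dashed) and the 8 genes in red. Fgf4 stands at 19 and Fgfr2, below the median, at 6; the axis leaves out 1 gene above 40.

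Fgf4, the ligand, had the most peaks of the members once Fgfr2-217 was left out, 22 in a window that held 18.7 peaks per 100 kb, a density reached by 2.69% of protein-coding genes. The gene lies on chromosome 7, plus strand, and the principal transcript, Fgf4-201, has 3 exons and starts at 144861386. The peak at the start (144861053 to 144862242, 1190 bp) covered the start and was centred in the coding part of exon 1. A peak of 649 bp (144864287 to 144864935) lay in the 3′ untranslated region in exon 3, 3.23 kb from the start. It carried the spaced OCT4::SOX2 match printed above, at -208 bp from its centre, on the side of the gene's start. The SOX part of that match is itself an exact SOX match, and the peak also held an exact ESRRB match. The base composition of this 3′ peak differed from that of the promoter peak, with 46.2% against 68.6% GC and a CpG observed-to-expected ratio of 0.09 against 0.75.

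The Fgf4 window was shared with other FGF genes. Of its 22 peaks, 9 were nearest to the start of Fgf3 and 7 to that of Fgf4, and the remainder lay nearest to Fgf15 or LTO1. The widest, 1883 bp (144837670 to 144839552), covered the start of Fgf3, and one of 1654 bp (144895770 to 144897423) that of Fgf15, so that all 3 ligand genes of this cluster had an accessible promoter. The adjacent OCT4::SOX2 match lay in a peak of 773 bp (144888722 to 144889494), 27.7 kb beyond the start of Fgf4 and nearest to that of Fgf15, at -322 bp from the peak's centre. Its neighbour on the Fgf4 side, a peak of 304 bp, was separated from it by less than 1000 bp. The widest distal peak, 986 bp (144821732 to 144822717), lay at -39.2 kb on the side of Fgf3. With gaps of at most 10000 bp, 16 of the Fgf4 peaks belonged to a run of 21 that spanned 108 kb.

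Fgfr1, a receptor gene, had 15 peaks on chromosome 8 (plus strand, principal start 25518759). The peak at the start (25518651 to 25519647) was the most GC-rich of the 8 start peaks. A second start, that of a longer transcript 5105 bp upstream, had its own peak of 584 bp (25513167 to 25513750), with the octamer printed above and a TCF match, and 48.6% GC. Intron 2 of the 18-exon transcript Fgfr1-201 held 4 peaks between 17.3 and 26.3 kb, and these formed the longest run at the gene, 9.35 kb. One of them, 1371 bp wide (25536371 to 25537741), had a width reached by 0.886% of all distal peaks. Of the 15 peaks, 9 were nearest to Fgfr1, 3 to Letm2 and 3 to Nsd3, and the widest, 1505 bp (25601400 to 25602904), covered the start of Nsd3.

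Fgfr2, the receptor associated with primitive endoderm in the embryo, had the fewest peaks, 8 in its window on chromosome 7 (minus strand, principal start 130266191), or 3.93 per 100 kb, a density that 68.3% of protein-coding genes reached. Its start peak was nevertheless long (130264996 to 130266690). The distal peaks were few and mostly narrow, with 4 of the 7 between 161 and 320 bp. The widest was a peak of 998 bp in intron 2 (130253053 to 130254050), 12.6 kb into the gene, which held exact SOX, AP-1, STAT and TCF matches. Peaks of 580 and 417 bp lay at -7.14 and 75.6 kb. Listed peaks covered 2.23% of the Fgfr2 window and 12.8% of that of Fgf4, and a stretch of 45425 bp at Fgfr2 held none. All 8 were nearest to the principal start of Fgfr2.

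Dusp6, the phosphatase that removes the activating phosphates from ERK, is a compact gene on chromosome 10 (plus strand, principal start 99263231) with 11 peaks. The start peak (99262748 to 99263927) was its widest, and a second peak of 800 bp (99261464 to 99262263) lay just upstream, with 67% GC and the octamer at -1.75 kb. Further peaks stood in a group of 5 between 23.9 and 35.8 kb downstream, the last of which (99298522 to 99299549, 1028 bp) held an octamer and exact SOX and STAT matches and covered the start of the non-coding gene B530045E10Rik. Of the 11 peaks, 6 counted as promoter-proximal, some of them at starts of non-coding genes. The widest of the 5 distal peaks measured 431 bp, a width that 39.9% of distal peaks reached. No other protein-coding start lay closer to any of the 11.

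Spry2, a Sprouty inhibitor of receptor signalling, had 14 peaks on chromosome 14 (minus strand, principal start 105896819), all nearest to Spry2. The start peak (105896873 to 105898007, 1135 bp) was the promoter-proximal one, and 13 peaks were distal, 12 of the 14 centred between genes. The largest peaks lay far downstream. One of 1509 bp (105858877 to 105860385), centred 37.2 kb from the start in an intron of Gm48970, a non-coding gene, had a width reached by 0.489% of distal peaks and held exact octamer, SOX, ESRRB and TCF matches. Another of 1476 bp (105864351 to 105865826) lay 31.7 kb downstream, with SOX and TCF matches. Both were AT-rich, at 42.5% and 45.2% GC, against 68.7% at the start.

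Spry4, the other Sprouty member, had 13 peaks on chromosome 18 (minus strand, principal start 38601415), all nearest to Spry4. Its start peak (38600902 to 38602882) was the widest of the 110. Upstream, 4 peaks between -35.0 and -24.5 kb lay in an intron of AC133601.1, and the one nearest to Spry4 (38625697 to 38626139, 443 bp) held a spaced OCT4::SOX2 match with 2 mismatches, 178 bp from its centre. A peak of 556 bp (38590099 to 38590654) lay in the coding part of exon 2. Downstream, 7 intergenic peaks reached out to 58.6 kb, where the last (38542033 to 38543580, 1548 bp) had a width reached by 0.426% of distal peaks. Spry2 and Spry4 thus each had a distal peak (1509 and 1548 bp) wider than any at the other members.

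Etv4, an ETS factor induced by FGF signals, had 10 peaks on chromosome 11 (minus strand, principal start 101785310). The widest (101784338 to 101785734, 1397 bp) spanned the start and the beginning of intron 1, and each of the 10 annotated starts had a peak within 1000 bp. Upstream, 2 peaks with CTCF matches lay together at -29.6 and -28.2 kb (898 and 635 bp), and another CTCF match lay in a peak at 21.3 kb. A stretch of 30172 bp held no peak. Of the 10, 8 were nearest to Etv4 and 2 to Dhx8, and the peak at the Dhx8 start (101732368 to 101733463) held the ETS match of the set.

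Etv5, the related ETS factor, had 17 peaks on chromosome 16 (minus strand, principal start 22439719), all nearest to Etv5. The start peak (22439240 to 22440394, 1155 bp) was its widest and contained an AP-1 match, and a second of 575 bp (22438263 to 22438837) lay 1.17 kb into the gene. In contrast to Spry2 and Spry4, most peaks lay inside the gene, with 11 of the 17 in introns of Etv5, and 15 formed a run of 65.3 kb. Etv5 spans 58411 bp, against 4873 bp for Spry2 and 15169 bp for Spry4, which have less room for intronic peaks. Whether the contrast goes beyond gene length was not tested. The peak with the composite match (22411753 to 22412114, 362 bp) was centred 27.8 kb from the start in intron 6 of the 13-exon transcript Etv5-201. The composite match lay 40 bp from the centre and contains the peak's exact octamer, and the peak also held exact SOX and CRE matches. A peak of 841 bp (22412568 to 22413408) with an ESRRB match lay beside it, on the promoter side. Narrow peaks were frequent, with a median of 333 bp and a lowest width of 141 bp.

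**Figure D3:**
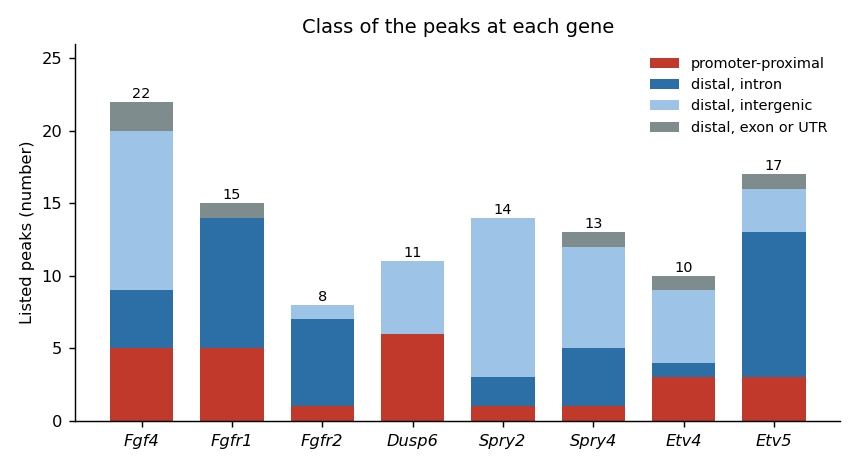
Number of listed peaks at each gene (22, 15, 8, 11, 14, 13, 10 and 17 from left to right), divided into promoter-proximal peaks and distal peaks centred in introns of any gene, between genes, or in exons or untranslated regions. Distal peaks at Spry2 are mostly intergenic (11) and those at Etv5 mostly intronic (10).

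Together, 25 of the 110 peaks (22.7%, 95% Wilson interval 15.9 to 31.4) were promoter-proximal, which means within 1000 bp of any annotated start, and 85 were distal. The share was 24.3% of the 247 peaks of the full rule and 25.1% of all listed peaks, so that the proportion at these genes was near that of the list. Of the 25, 15 lay at a start of the member itself. Peak centres fell between genes for 46.4% and in introns for 40.9%, against 38.3% and 44.4% of all listed peaks. With the peaks of Fgfr2-217 both directions turned, to 20.6% between genes and 62.8% in introns of the 247. Classes used the full annotated span of Fgfr2, so no peak added by that transcript could count as between genes. The number between genes was 51 in both sets, and its lower share was thus fixed by the annotation. For the same reason the Fgfr2 peaks at -11.6 and -7.14 kb, upstream of the principal transcript, counted as intronic among the 110. The nearest protein-coding start was that of the member for 87 of the 110 (79.1%), and for 5 of the 8 genes this held for every peak, namely Fgfr2, Dusp6, Spry2, Spry4 and Etv5. Intervals here cover counting error only and treat neighbouring peaks as independent, and peaks of a merged list are not biological replicates.

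**Figure D4:**
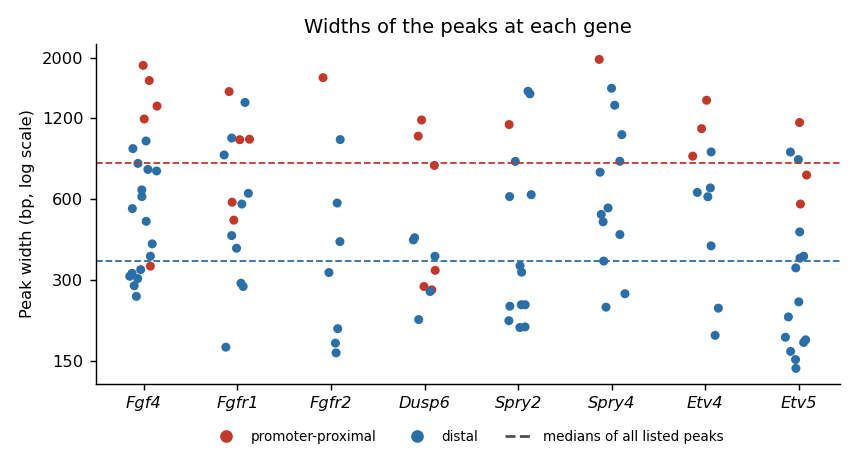
Width of every listed peak at each gene (bp, log scale), red for promoter-proximal and blue for distal. Dashed lines are the medians of all listed promoter-proximal (815 bp) and distal (352 bp) peaks, and points are spread sideways for legibility. Spry2 and Spry4 have the widest distal peaks, 1509 and 1548 bp.

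The median width of the 110 peaks was 495 bp (488 bp for the 247), against 415 bp for the list. Promoter-proximal peaks had a median of 1030 bp and distal peaks of 402 bp, against 815 and 352 bp in the list and 1040 and 411 bp in the 247. Peaks under 300 bp made up 27.3% at these genes and 35.8% of the list. Median GC content was 56.5% in the promoter-proximal and 51.6% in the distal peaks, and the median CpG observed-to-expected ratio was 0.72 and 0.28. Between genes, the median width ran from 330 bp at Spry2 to 648 bp at Etv4.

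The sequence of the windows was then searched beyond the peaks. Over 1082097 bp around the 8 genes there were 11 adjacent and 13 spaced OCT4::SOX2 matches, of which 1 and 3 lay in listed peaks, while peaks covered 6.34% of these bases. Fgfr2 had 4 spaced and 1 adjacent match and none in a peak, Fgfr1 had 3 adjacent and 1 spaced match and none in a peak, and Etv4 had neither arrangement anywhere in its window. Thus most of the close matches lay outside listed peaks, as did most of the bases searched. Whether matches lay in peaks more often than coverage alone would give was not tested. All 4 matches inside peaks were in distal peaks.

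Consensus matches to 14 motifs were counted in the central 300 bp of each peak, which keeps the searched length equal but reaches beyond the 27.3% of peaks (35.8% of the list) that are narrower. Among motifs of the ES cell factors, exact SOX matches (CTTTGTT or CATTGTT) occurred in 21 of the 110 peaks (19.1%, interval 12.8 to 27.4), against 14.4% of all listed peaks and 12.1% of the 247, so that the direction against the list turned with the set. Within whole peaks they occurred in 32 (29.1%, against 20.5% of the list), at least 1 at each gene. The whole-peak share of the 247 was 19.8%, so that this direction turned too. Whole peaks also differ in the length searched, with a median width of 495 bp for the 110 against 415 bp for the list. ESRRB (TCAAGGTCA), an orphan nuclear receptor of naive ES cells, had a match at 7 peaks, all distal (6.36%, interval 3.12 to 12.6, against 1.93%), of which 5 had it inside the peak itself. In the 247 the share was 3.64% (interval 1.93 to 6.78). The octamer occurred in 3 peaks centrally (2.73% against 1.71%, and 1.62% of the 247) and in 7 whole peaks (6.36% against 2.56%, and 4.05% of the 247). The adjacent composite was in 0 of 110 central stretches, which allows up to 3.37% by the Wilson interval, against 0.530% of the list. The spaced one was in 1 (0.909%, interval 0.161 to 4.97, against 0.327%). In whole peaks the adjacent one was in 1 (0.909% against 0.780%) and the spaced one in 3 (2.73% against 0.510%). Whole peaks of the 247 gave 0.810% and 1.62%. The 3-base spacing was taken from the Fgf4 enhancer, and 1 of the 3 spaced matches lies at Fgf4. That match is therefore not independent of the pattern searched. In the central 300 bp, the intervals of the octamer and of both composites included the list's share. In whole peaks, 7 and 3 of 110 have intervals of 3.12 to 12.6 and 0.932 to 7.71. These leave out the list's 2.56% for the octamer and 0.510% for the spaced composite. For the adjacent composite, 1 of 110 has an interval of 0.161 to 4.97, which includes 0.780%. The numbers are small, whole peaks differ in the length searched, and a difference from the list was not tested.

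Motifs of signalling factors were counted in the same way. STAT (TTCCNGGAA), the effector of LIF, had 3 central matches (2.73% against 1.28%, and 2.02% of the 247) and TCF (ATCAAAG), which acts with the β-catenin that GSK3 inhibition stabilises, had 7 (6.36% against 5.08%, and 3.64% of the 247, where the direction turned). Of the factors downstream of ERK, AP-1 (TGAGTCA) was matched in 6 peaks (5.45% against 6.87%), ETS (CCGGAAGT) in 1 (0.909% against 1.29%) and SRF in 0 (against 0.140%). The cyclic-AMP element CRE (TGACGTCA) was matched in 2 (1.82% against 0.653%), in Etv5 and at the distal side of the Fgf4 window. KLF had 4 (3.64% against 5.84%), AP-2 0 (against 1.61%) and CTCF 9 (8.18% against 10.6%). For these the 247 gave 5.26% (AP-1), 1.21% (ETS), 0.810% (CRE), 5.26% (KLF), 0.405% (AP-2) and 8.50% (CTCF), each on the same side of the list's share. In the central 300 bp, ESRRB was the motif of the 14 whose interval over the 110 peaks did not include the share of the whole list. Over the 247 the lower bound equalled that share at the precision printed. The intervals were not corrected for the number of motifs, and they treat neighbouring peaks as independent. With 14 motifs looked at, 1 such exclusion could arise by chance, and an enrichment of ESRRB was not tested. A match is a run of letters, not evidence of a bound factor.

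**Figure D5:**
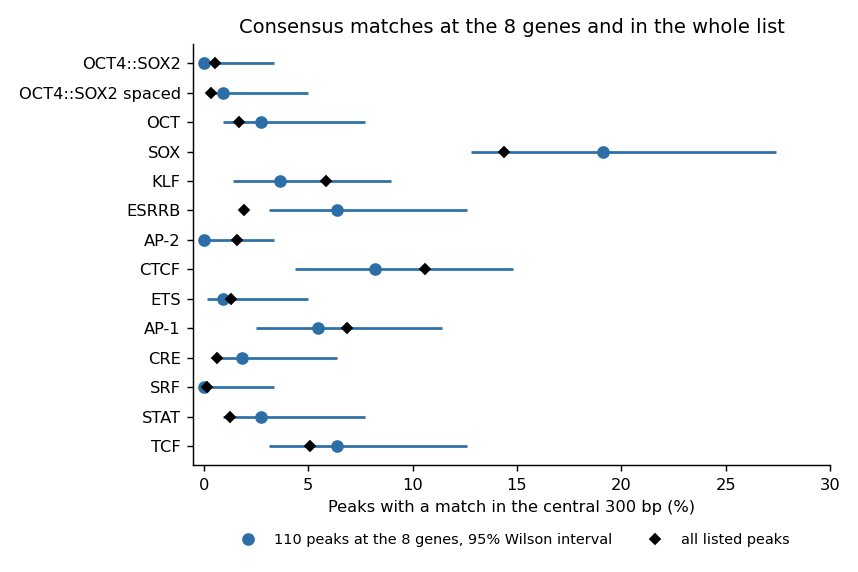
Percent of peaks with a consensus match in the central 300 bp, for the 110 peaks at the 8 genes (blue, with 95% Wilson intervals; stretches may reach beyond narrower peaks) and for all 102373 listed peaks (black diamonds). SOX (19.1%) and CTCF (8.18%) are the most frequent at the 8 genes. The interval of ESRRB (3.12 to 12.6) lies above the diamond at 1.93, but no interval is corrected for the number of motifs.

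Other genes of the pathway were counted from a list by role. Of 70 genes, 69 were found in the annotation (Spry3 was not), and 62 of these (89.9%) had a listed peak at most 1000 bp from the principal start, beside 8 of 8 members and 66.8% of protein-coding genes. All 8 adaptors and exchange factors, all 13 genes of the kinase cascade, all 11 inhibitors and all 11 transcription factors and targets had one. The exceptions were among the ligands, where 15 of 21 had one, and the receptors and co-receptors, where 4 of 5 did and Klb, the co-receptor for endocrine FGFs, did not. At most 50000 bp from the start, the median number of peaks was 11.0 over the 69 genes and 11.5 over the 8 members, so that the members lay near the middle of their pathway. By the gene span with its window, the most peaks were found at the adaptor gene Gab1 (31) and the inhibitor genes Spred2 (29) and Il17rd (28), and none at the ligand gene Fgf7.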

How the data were processed

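The authors aligned paired ATAC-seq reads to mm10 with STAR 2.6.1c and discarded PCR duplicates using Picard. Peaks were called on chromosomes 1 to 19, X and Y with MACS 2.1.1.20160309 in paired-end mode, and those of the 16 dox-treated samples were merged by BEDTools. The deposited values are peak starts and ends in bp, with no count, score or depth. The methods describe a filter on widths over 5000 bp, but 7 wider peaks remain in the list, none of them at these genes. Removal of blacklisted and input-called regions could not be tested.

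Starts were converted to count from 1. Gaps were measured in bp between interval ends, and a peak's class is that of its centre. Principal transcripts are those tagged by APPRIS in GENCODE M21, and a gene without a tag kept its annotated 5′ end. Motifs were searched on both strands of the RefSeq copy of GRCm38.p6 without mismatches, except 1 for CTCF and 2 for the composites, which the SOX and octamer motifs overlap.

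The 8 genes, the pathway and marker lists and the rule for named peaks (those at starts, the widest, those with composite matches, the main neighbour, the 3 pathway genes with most peaks and those with none) were chosen with earlier results of these data known. Other peaks named were chosen after their values were seen. A limma fit of MD-OCT4 against MD*-OCT4 was planned but needs values per sample. In tests on simulated data, 200 of 200 windows and 200 of 200 planted motifs were recovered. Tools were matplotlib 3.10.9, numpy 2.4.6, pandas 2.3.3 and scipy 1.17.1 in Python 3.11.15.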

Additional observations from a re-analysis of the deposited data

How the results depend on the processing

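No paired analysis was possible because the merged list holds no value for any sample. The planned limma fit, the fit without a replicate block and the fits that leave out replicate 1 or 2 were for this reason not run. The number of peaks at the 8 genes, 247 by the rule, ranged from 183 to 315 with windows of 20000 or 100000 bp, peaks of at least 300 bp, joined peaks or repeats and wide peaks left out. It fell to 95 within 50000 bp of the annotated 5′ end, to 92 with peaks nearest to the annotated 5′ end of the member, to 110 without Fgfr2-217 and to 91 round the principal 5′ end. The last 2 were chosen after seeing the data, and Fgfr2 kept 9, 14, 8 and 6 of its 145 peaks in these settings. The median over genes, 14.5 peaks, stayed between 14.0 and 15 without each gene in turn and was 11.5 round either 5′ end and 13.5 without Fgfr2-217. Of 72 counts for single genes under alternatives, 51 stayed within 1.5 times the first count.

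The promoter-proximal share of the 247 peaks, 24.3%, was 35.6% at 2500 bp, 19% with protein-coding starts and 21.1% at 500 bp. The median width of 488 bp became 649 bp once peaks under 300 bp were dropped. In whole peaks, shares of the 247 rose to 19.8% for SOX, 9.72% for KLF, 11.3% for AP-1 and 6.88% for TCF, where more bases are searched. The spaced composite, 0.405%, was 0% with up to 1 mismatch and 2.83% with up to 3. Without Fgfr2-217, the SOX share was 19.1% against 12.1% and the AP-2 share 0% against 0.405%. The depth behind the list is unknown, so that the lack of a listed peak does not show closed chromatin.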
